A study of Mus musculus with 15 samples.

Results

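The effect of Akt1s1 loss on sorted mouse germ cells was compared between adults of 2 to 3 months and pups at 3 days post partum (dpp). For every gene, the difference between knockout (KO) and wild type (WT) at 3 dpp was subtracted from that in adults. This value, on the log2(signal + 1) scale, is called the interaction, and a positive interaction means that KO minus WT was higher in adults. The comparison used 10 of the 15 libraries of the series: 3 KO and 2 WT libraries from adults, and 2 KO and 3 WT libraries from 3 dpp. The other 5 libraries, 3 KO and 2 WT at 7 dpp, gave values for the age in between. A gene was tested where its signal was at least 1 in at least 2 of the 10 libraries, which 17506 of 27128 gene names met.

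All mice carried GFP driven by the Pou5f1 (Oct4) promoter, a line labelled Og2. KO mice had the genotype Pou5f1-Gfp;Akt1s1 null, and WT mice the genotype Pou5f1-Gfp;WT. Testes were digested with enzymes, GFP-positive cells were sorted by flow cytometry, and mRNA libraries were sequenced. The number in each title serves as the library's name: KO 10, 11 and 12 and WT 7 and 9 in adults, KO 16 and 18 and WT 13, 14 and 15 at 3 dpp. Whether libraries of 1 group stem from different animals is not stated in the labels. The p-values therefore cover the spread among these libraries only, and part of it may be technical.

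Akt1s1 encodes PRAS40, a protein that binds Raptor and restrains the kinase complex mTORC1; phosphorylation by AKT relieves that restraint. mTORC1 promotes ribosome production and translation, and in spermatogonia its activity is linked to the step from self-renewal to differentiation. Shortly after birth the germ cells of the testis are prospermatogonia and the first spermatogonia, and meiosis has not yet begun. In adults, spermatogonia lie beside germ cells of all later stages.

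Each deposited signal behaves as a transcripts-per-million (TPM) value times 1 factor per library, so the number of reads behind a value is unknown and counting intervals are not given. Totals of the 10 libraries lay between 896543 and 1183294, with KO 16 and 18 the highest, and 14718 to 16312 genes reached a signal of 1. Within groups, libraries correlated across genes with r of 0.972 to 0.988. The adult libraries held RNA of other cells: summed over 32 markers of round and elongating spermatids, the signal was 6496, 3160 and 3125 in KO 10, 11 and 12 and 14010 and 6525 in WT 7 and 9, against 151 to 168 at 3 dpp. Summed over 13 Leydig cell markers it was 3152, 156 and 1395 in adult KO and 5810 and 4104 in adult WT. Summed over 20 macrophage markers it was 708, 104 and 282 in adult KO and 2006 and 680 in adult WT. In adults, spermatid and Leydig sums were thus lower in every KO library than in either WT library, while macrophage sums overlapped. The same held without overlap for sums of Sertoli cell markers (201 to 320 in adult KO, 357 to 658 in adult WT), stromal fibroblast markers (265 to 298 and 309 to 346 in KO and WT), myoid markers (56.3 to 63.8 and 64.7 to 97.6) and immediate early genes (1063 to 1360 and 1581 to 1850). Also lower without overlap were sums of lysosome and autophagy genes, ATF4 target genes, GDNF and FGF receptor signalling genes, and erythroid markers. Sums of meiotic prophase and cell cycle genes were higher in adult KO without overlap. Of all genes tested, 19.4% lay lower and 15.4% higher in adult KO without overlap. In such bulk samples, fewer cells of a type and less RNA per cell cannot be told apart. The germ cell helicase Ddx4, which does not separate germ cell stages, had a signal of 333 to 382 in adult libraries and 456 to 581 at 3 dpp.

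The labels call the sorted cells spermatogonia, and in adults the markers went against this in part. Summed over 34 markers of undifferentiated spermatogonia, the signal was 1328 to 2163 in adults and 2390 to 2555 at 3 dpp. In each adult library the sums over 40 meiotic prophase genes (2714 to 3257) and over spermatid markers were higher than that sum. At 3 dpp the meiotic sum (2451 to 2811) was also the higher in all libraries but KO 18, while spermatid sums (151 to 168) were below. Sums over lists of different genes are not levels of like measure. Gfra1, the GDNF receptor of undifferentiated spermatogonia, had 4.78 to 8.43 in adult libraries and 154 to 212 at 3 dpp. Kit, a receptor of differentiating spermatogonia, had 168 to 186 in adults and 45.2 to 63.1 at 3 dpp. The levels of these stage markers thus differed between the ages, and their part in the interaction was not tested.

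The targeted gene was lower in KO at both ages. Akt1s1 had a signal of 43.1, 45.2 and 47.4 in adult KO libraries and 67.9 and 67.1 in adult WT libraries. At 3 dpp Akt1s1 had 35.2 and 33.4 in KO libraries, against 52.4, 51.0 and 49.4 in WT libraries. KO and WT did not overlap at either age, and transcripts that still map to the gene remained in every KO library; the sources used here do not give which part was deleted. KO minus WT was -0.57 ± 0.07 (SE) in adults and -0.56 ± 0.07 at 3 dpp, with adjusted p of 0.0129 and 0.00374 (limma, Benjamini-Hochberg over all genes tested). The interaction was -0.01 ± 0.10, with a 95% interval from -0.24 to 0.22 and an adjusted p of 0.973. Pou5f1, whose promoter drives the sorting marker, had an interaction of -0.43 ± 0.42 (adjusted p = 0.627), and its KO and WT libraries overlapped at both ages.

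The genotype effect differed between the ages for 114 of the 17506 genes, 0.651%, at an adjusted p under 0.05 in limma. KO minus WT was higher in adults for 84 genes (0.48%) and lower in adults for 30 genes (0.171%). Below, genes called higher or lower in adults are those whose KO minus WT was higher or lower in adults. Their signal itself need not have changed that way with age. The effect differed by at least 2-fold for 36 of them, 23 higher and 13 lower in adults. At an unadjusted p under 0.05 there were 3196 genes, and the smallest adjusted p was 0.00307. Rescaling all libraries to the same total gave 1066 genes, 1000 higher and 66 lower in adults, and so a share higher of 93.8% against 73.7%; that scaling gave a median interaction of all genes of 0.13, against -0.02. At 3 dpp it gave 336 genes higher and 3009 lower in KO, against 835 and 1071 on the deposited scale.

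The 3 dpp libraries carried most of these differences. Of the 84 genes that were higher in adults, 82 passed as lower in KO than in WT at 3 dpp, as did 6.12% of all genes, and 2 passed as higher in adult KO, as did 0.109% of all genes. Of the 30 genes that were lower in adults, 26 passed as higher in KO at 3 dpp (4.77% of all genes). Another 2 passed only as lower in adult KO (0.0914% of all genes), and 2 passed at neither age. Among all genes tested, 1906 (10.9%) passed at 3 dpp and 35 (0.2%) in adults; these contrasts are parts of the interaction, so the counts describe the called genes and test nothing further. At 3 dpp, all KO libraries lay below all WT libraries in 82 of the 84 genes, against 21.8% of all genes, and above them in 29 of the 30, against 17.1% of all genes. In adults, KO lay wholly above WT in 50 of the 84 (15.4% of all genes) and wholly below in 1. Among the 30, adult KO lay wholly below WT in 16 (19.4% of all genes) and wholly above in 4. In 106 of the 114 genes the effect at 3 dpp was larger in size than that in adults, and in 95 the 2 effects had opposite signs. Shares over all genes are not given for these 2 counts, and choosing genes by a large interaction favours opposite signs. Only 1 gene, Smim22, passed at both ages in opposite directions. Across all 17506 genes the effects at the 2 ages had a Pearson r of 0.21 and a Spearman rho of 0.12. Effects of all genes spread to a like degree at the 2 ages, with an SD of 0.41 in adults and 0.45 at 3 dpp. The median SE was 0.18 at each age by design, because the fit pools the variance of a gene over the groups and each contrast sets 3 libraries against 2.

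**Figure D1:**
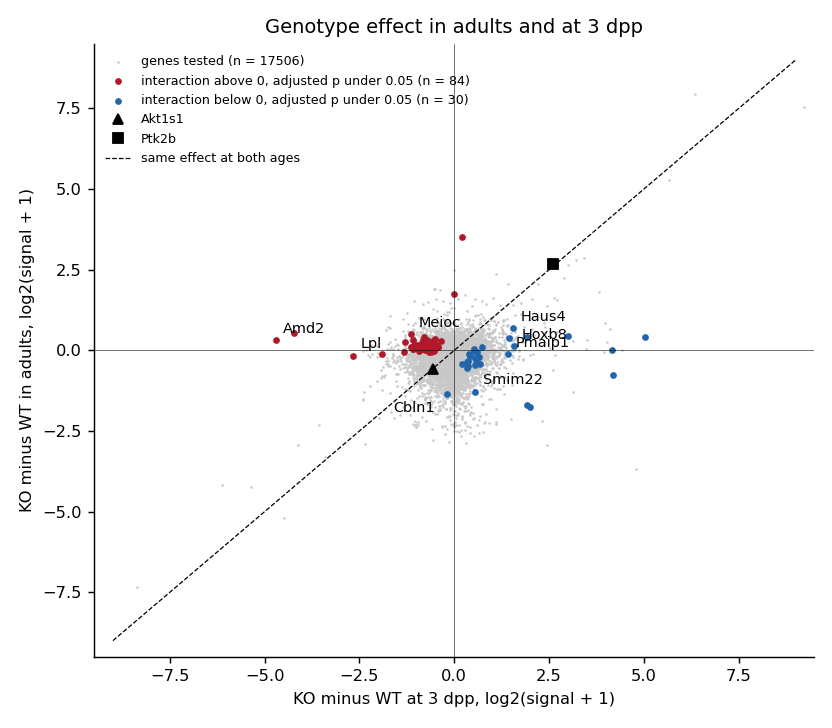
KO minus WT on the log2(signal + 1) scale in adults (vertical axis) and at 3 dpp (horizontal axis) for the 17506 genes tested; red points are the 84 genes with an interaction above 0 past the threshold, blue points the 30 below 0, and the dashed line marks equal effects. Most red points lie left of 0 and most blue points right of 0 near an adult effect of 0, while Akt1s1 and Ptk2b lie on the dashed line.

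Whether a gene passed depended on single libraries to a large degree, and most of the 114 genes lay close to the threshold. With 1 library left out in turn, between 2 and 580 genes passed: 29, 6 and 3 without adult KO 10, 11 and 12, 3 and 4 without adult WT 7 and 9, 580 and 20 without 3 dpp KO 16 and 18, and 6, 2 and 129 without 3 dpp WT 13, 14 and 15. Most of the 114 calls had KO minus WT higher in adults, but without KO 10 there were 10 higher and 19 lower, and without KO 11 there were 2 and 4. At an adjusted p under 0.1 in limma, 114, 81 and 3 of the 114 remained without adult KO 10, 11 and 12. Without 3 dpp WT 13, 14 and 15 there were 113, 104 and 114. Fits without an adult WT or a 3 dpp KO library leave 1 library in that group. Their counts at this looser threshold are not given, so KO 12 need not be the only library of such weight. All 114 genes kept their direction in each of these 10 fits. They were chosen for a large interaction in the same libraries, so a kept direction is no separate test. Among the 34 genes past the threshold that are described below with their values, Amd2 alone passed in all 10 (highest adjusted p 0.0414).

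The called genes also sorted by transcript length. Genes with KO minus WT higher in adults had a median transcript length of 5717 bases and a GC content of 42.1%. Genes with KO minus WT lower in adults had 1549 bases and 55.3%, and all genes tested had 2818 bases and 50.6%. Length was known for 77 of the 84 genes (91.7%), 25 of the 30 (83.3%) and 85.8% of all. With genes split into 5 groups of equal number from the shortest to the longest, the median interaction was -0.28, -0.13, -0.04, 0.07 and 0.20. The median effect was between -0.04 and -0.02 in all 5 groups in adults, and at 3 dpp it was 0.20, 0.08, -0.01, -0.11 and -0.27. Within single libraries, the longest group stood below the shortest by 0.35 and 0.42 (log2) in KO 16 and 18 relative to the mean of the 10 libraries, and above it by 0.03 to 0.16 in the other 8. With the trend of each library with length and GC removed, 3 genes passed, Amd2, Csrp1 and Timm17a, and all 102 called genes with a known length kept their direction. The median interaction of the 77 higher genes was then 0.49, against 0.85 without the correction, and that of the 25 lower genes was -0.64, against -0.87.

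**Figure D2:**
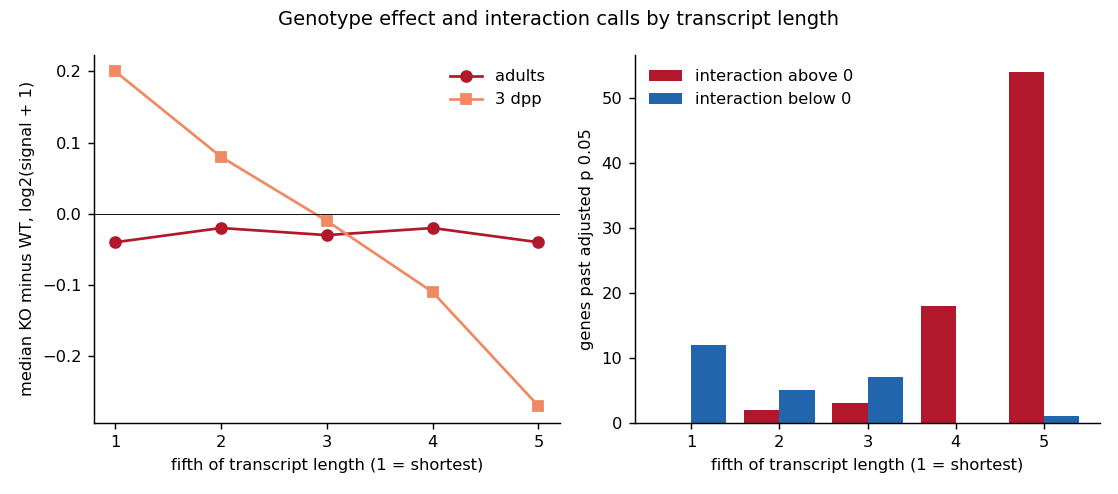
Left, the median of KO minus WT (log2(signal + 1)) in adults and at 3 dpp for 5 groups of genes by transcript length, from the shortest (1) to the longest (5), about 3006 genes each. Right, the number of genes past the interaction threshold in each group; 54 of the genes above 0 lie in the longest group and 12 of those below 0 in the shortest, and the medians fall with length at 3 dpp and are flat in adults.

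The largest interaction belonged to Amd2, a single-exon copy of the gene for S-adenosylmethionine decarboxylase, an enzyme of polyamine synthesis. Amd2 had a signal of 21.8, 15.5 and 34.1 in adult KO libraries and 17.4 and 18.2 in adult WT libraries. At 3 dpp Amd2 was listed at 0 in both KO libraries, against 23.8, 21.9 and 30.3 in WT libraries. The groups overlapped in adults and did not at 3 dpp, and the interaction was 5.04 ± 0.38 (adjusted p = 0.00307). Against a group listed at 0 this value depends on the pseudocount (8.32 with 0.1 in place of 1), and no fold is given. At 7 dpp Amd2 had 20.7, 20.5 and 34.3 in KO libraries and 28.4 and 15.4 in WT libraries, which overlapped. Its parent gene Amd1 had a signal of 88.8 to 120 in the 10 libraries.

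Amd2 lies on the minus strand at chr10:35708675-35711892 (GRCm38, GENCODE M21), and Amd1, with 8 exons, on the minus strand at chr10:40287458-40302186. Their coding sequences of 1005 bases are 99.9% identical, with 1 difference, G796C, counted from 1 at the first base of the start codon with the base of Amd1 given first. Bases 709 to 798 of both coding sequences are shown because they hold that difference, which is in capitals.
Amd2: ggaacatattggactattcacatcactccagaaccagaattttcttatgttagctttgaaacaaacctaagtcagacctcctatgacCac
Amd1: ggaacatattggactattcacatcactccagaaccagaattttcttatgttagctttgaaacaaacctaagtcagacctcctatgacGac
Reads from such copies could be assigned to either gene, so the level of Amd2 and its 0 values are uncertain.

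The 11 next highest named genes fell in several roles. Lpl, the lipase that hydrolyses triglycerides of lipoproteins, had 1.86, 1.72 and 2.13 in adult KO and 3.60 and 1.29 in adult WT libraries. At 3 dpp Lpl had 1.40 and 2.38 in KO libraries, against 16.1, 19.8 and 15.9 in WT libraries. The 3 dpp groups were far apart while adult groups overlapped at a low level, and the interaction was 2.51 ± 0.41 (adjusted p = 0.0423). Lpl was also lower in KO at 7 dpp, with 1.70, 1.82 and 2.23 in KO libraries and 16.5 and 10.8 in WT libraries (-2.31, adjusted p = 0.0019), so the WT level was high at 3 and 7 dpp and low in adults.

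Slc39a9, a zinc transporter of the ZIP family, had 28.1, 29.5 and 32.8 in adult KO and 25.9 and 23.8 in adult WT libraries. At 3 dpp Slc39a9 had 14.1 and 8.99 in KO libraries, against 30.4, 29.7 and 27.6 in WT libraries. KO was thus above WT without overlap in adults and below WT without overlap at 3 dpp, and the interaction was 1.57 ± 0.22 (adjusted p = 0.0345). Only the 3 dpp difference passed by itself (-1.30, adjusted p = 0.00319; adults 0.27, adjusted p = 0.549).

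The same order of libraries was seen in Knl1 (Casc5 in the files), a scaffold of the outer kinetochore, with an interaction of 1.40 ± 0.20. It was also seen in Ubr3 (Zfp650), a ubiquitin ligase of the N-recognin family (1.25 ± 0.18), and in Trappc8 (D030074E01Rik), a subunit of a vesicle-tethering complex (1.17 ± 0.17). Tc2n (Mtac2d1) and the lipid kinase gene Pik3c2a, with 1.21 ± 0.22 and 1.15 ± 0.20, had it too. In Kdm7a (A630082K20Rik), a histone demethylase, and Tmtc3, an enzyme of protein O-mannosylation, adult KO and WT libraries overlapped, with interactions of 1.23 ± 0.22 and 1.11 ± 0.19. In all 7 genes KO libraries lay below all WT libraries at 3 dpp, and adjusted p for the interaction was between 0.0345 and 0.0499 (limma). The shortest of their transcripts, that of Trappc8, had 5194 bases. At 7 dpp none of the 7 passed, with effects from -0.23 to 0.19.

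Genes of meiotic prophase, in which chromosomes pair and recombine, were the list with most calls: 5 of 40 tested passed, all with KO minus WT higher in adults (12.5%, against 0.48% of all genes). The list's median interaction was 0.24, against -0.02 over all genes, with medians of 0.14 in adults and -0.17 at 3 dpp. Sycp1, the transverse filament of the synaptonemal complex, had 200, 219 and 225 in adult KO and 187 and 169 in adult WT libraries. At 3 dpp Sycp1 had 120 and 99.0 in KO libraries, against 177, 163 and 191 in WT libraries. KO was above WT in adults and below WT at 3 dpp without overlap, and the interaction was 0.96 ± 0.14 (adjusted p = 0.0361).

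Sycp2, of the axial elements of the same complex, had 60.0, 62.1 and 68.2 in adult KO and 55.3 and 44.5 in adult WT libraries. At 3 dpp Sycp2 had 27.97 and 25.97 in KO libraries, against 48.0, 44.5 and 46.4 in WT libraries, an interaction of 1.10 ± 0.15 (adjusted p = 0.0345). Smc1b, the meiotic cohesin subunit, had 182, 195 and 190 in adult KO and 150 and 147 in adult WT libraries. At 3 dpp Smc1b had 116 and 114 in KO libraries, against 152, 182 and 157 in WT libraries, an interaction of 0.85 ± 0.11 (adjusted p = 0.0345). In both genes neither age overlapped and the order of KO and WT was opposite.

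Tex15, needed for recombination and for silencing of transposons in male germ cells, had 197, 173 and 192 in adult KO and 166 and 143 in adult WT libraries. At 3 dpp Tex15 had 105 and 108 in KO libraries, against 155, 176 and 145 in WT libraries, an interaction of 0.84 ± 0.14 (adjusted p = 0.0429). It was the only call among 27 tested genes of piRNA and germline transposon control (3.7%, against 0.48% of all genes). Meioc (Gm1564), which sustains the meiotic programme after entry, had 60.1, 76.1 and 86.5 in adult KO and 61.3 and 43.0 in adult WT libraries. At 3 dpp Meioc had 6.34 and 6.83 in KO libraries, against 14.7, 19.3 and 13.3 in WT libraries, an interaction of 1.64 ± 0.29 (adjusted p = 0.0451). Adult libraries of Meioc overlapped; those at 3 dpp did not.

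At 7 dpp the 5 genes had effects between -0.20 and 0.05, and none passed. Leaving out single libraries gave medians of the meiotic list from 0.14 to 0.35, rescaling to the same total gave 0.35, quantile normalization 0.28 and removal of the length and GC trend 0.18. The transcripts of the 5 called genes were 3437 to 8405 bases long, against a median of 2598 over the list. Signal summed over the 40 genes was 3015, 3219 and 3257 in adult KO and 2879 and 2714 in adult WT libraries, which did not overlap. At 3 dpp it was 2594 and 2451 in KO libraries, against 2601, 2811 and 2715 in WT libraries, lower without overlap but by little. Summed spermatid signal went the other way in adults, lower in KO, and its part in these differences was not tested.

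Promoters were compared for the called genes as sequence. RefSeq (GRCm38.p6) gave a window from 250 bases before to 50 after the start for 61 of the 84 genes that were higher in adults. The E-box CACGTG, read on both strands, was in 11 of them (18%), against 9.95% of 11700 windows of tested genes. The letters TTCCCGCC, of the kind bound by E2F factors, were in 4 of them (6.56%), against 3.9%. Of the 4 meiotic genes with a window, Sycp2, Smc1b and Meioc held neither. The window of Sycp1, at chr3:102936051-102936350 on the minus strand, is shown because it is the one with an E-box, given in capitals.
Sycp1: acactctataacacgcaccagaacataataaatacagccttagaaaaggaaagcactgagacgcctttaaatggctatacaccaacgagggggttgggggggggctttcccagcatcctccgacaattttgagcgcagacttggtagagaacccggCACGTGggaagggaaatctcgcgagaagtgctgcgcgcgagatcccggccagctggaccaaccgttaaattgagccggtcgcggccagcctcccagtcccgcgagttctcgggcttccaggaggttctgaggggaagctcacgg

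Of 38 tested cell cycle genes, 3 passed, all with KO minus WT higher in adults (7.89%, against 0.48% of all genes). The list's median was 0.06. Mki67, the proliferation antigen Ki-67, had 103, 110 and 112 in adult KO and 102 and 80.8 in adult WT libraries. At 3 dpp Mki67 had 85.9 and 77.0 in KO libraries, against 132, 139 and 118 in WT libraries, an interaction of 0.92 ± 0.15 (adjusted p = 0.0429). Cenpe, a kinetochore motor, and Cenpf, a kinetochore protein, had interactions of 0.85 ± 0.14 and 0.80 ± 0.11 (adjusted p 0.0417 and 0.0345). In all 3 genes KO libraries were above WT libraries in adults and below them at 3 dpp without overlap. Their transcripts were 7910 to 11130 bases long, while the list's median was 2986. Top2a, which untangles DNA in mitosis, missed the threshold with 0.55 ± 0.11 (adjusted p = 0.0563).

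Other genes with KO minus WT higher in adults were the chromosome condensation genes Smc2 and Smc4 (0.83 and 0.87), the cohesin regulator Pds5a (0.85) and the mitotic kinesin Kif20b (1.04). Rif1, which times replication, and the chromatin remodeller Atrx had 0.95 and 0.92. Rock1, a kinase of the actin cytoskeleton, had 0.93 at an adjusted p of 0.0164, and the nuclear pore genes Ranbp2 and Tpr had 0.81 and 0.56. Fmr1, an RNA-binding protein gene, had 0.60. These were picked from the 114 called genes after their values were seen, and each passed as lower in KO at 3 dpp.

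**Figure D3:**
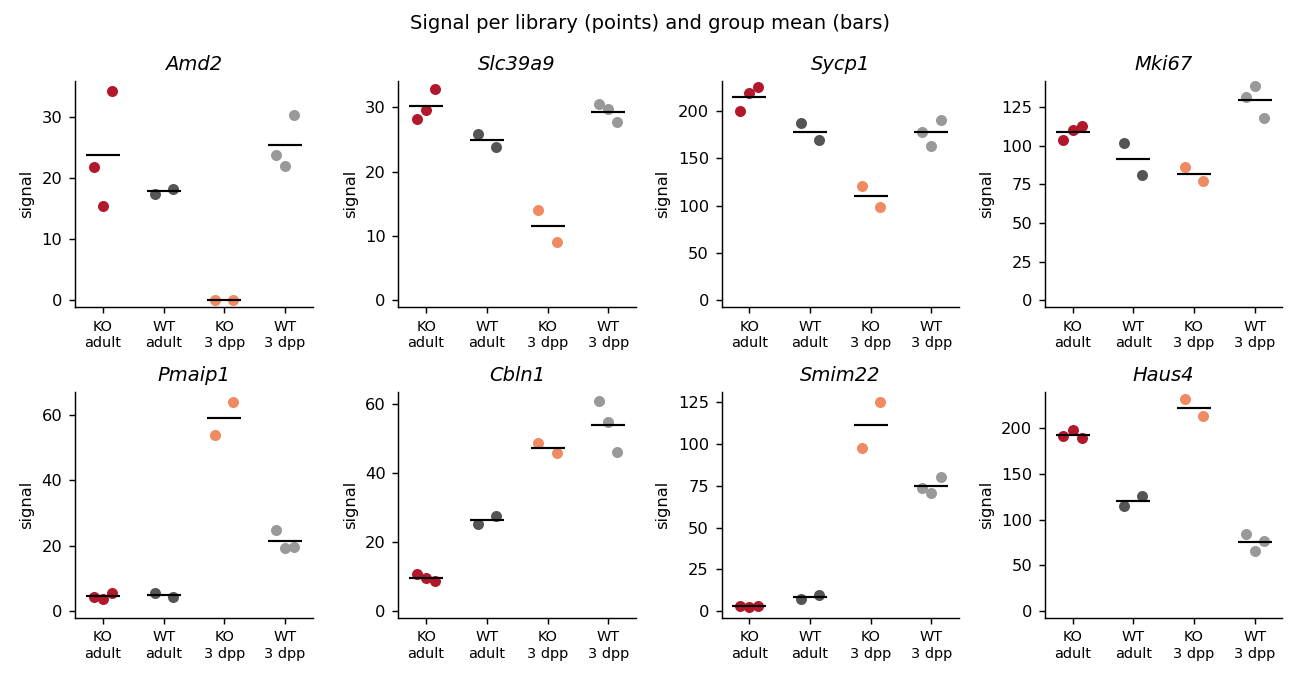
Signal of 8 genes in each of the 10 libraries (points) with group means (bars), KO left of WT in adults and then at 3 dpp, on linear axes. Amd2 is at 0 in both 3 dpp KO libraries, Slc39a9, Sycp1 and Mki67 have KO above WT in adults and below WT at 3 dpp, Pmaip1 is high only in 3 dpp KO libraries, and Cbln1 libraries overlap at 3 dpp and not in adults.

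Genes with KO minus WT lower in adults included 3 that passed as lower in adult KO. Cbln1, a secreted protein best known from cerebellar synapses, had 10.7, 9.72 and 8.70 in adult KO and 25.3 and 27.4 in adult WT libraries. At 3 dpp Cbln1 had 48.7 and 45.7 in KO libraries, against 60.8, 54.6 and 46.0 in WT libraries. The adult groups did not overlap (-1.36 ± 0.13, adjusted p = 0.00266) and the 3 dpp groups did (-0.18 ± 0.13, adjusted p = 0.432), an interaction of -1.18 ± 0.18 (adjusted p = 0.0365). With single libraries left out the interaction was -1.27 to -1.07.

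Smim22 (EG432995), a gene for a small membrane protein, moved in opposite directions at the 2 ages. It had 3.15, 2.52 and 2.93 in adult KO and 7.14 and 9.78 in adult WT libraries. At 3 dpp Smim22 had 97.6 and 125 in KO libraries, against 73.4, 70.6 and 80.5 in WT libraries. Both differences passed (-1.28 ± 0.15, adjusted p = 0.00931 in adults; 0.56 ± 0.15, adjusted p = 0.047 at 3 dpp), and the interaction was -1.84 ± 0.22 (adjusted p = 0.0325). Capzb, the beta subunit of the actin capping protein, passed as lower in adult KO (-0.42, adjusted p = 0.0429) and not at 3 dpp (0.21, adjusted p = 0.0718), with an interaction of -0.63. Lower sums of spermatid, Leydig, Sertoli, stromal and myoid markers and of immediate early genes in adult KO accompanied these adult differences, and their part in them was not tested.

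Haus4 (D14Ertd500e), a subunit of the augmin complex of the spindle, was higher in KO at both ages and more so at 3 dpp. It had 192, 198 and 189 in adult KO and 115 and 126 in adult WT libraries. At 3 dpp Haus4 had 231 and 213 in KO libraries, against 83.9, 65.3 and 77.1 in WT libraries. KO minus WT was 0.68 ± 0.10 in adults and 1.55 ± 0.10 at 3 dpp, an interaction of -0.87 ± 0.14 (adjusted p = 0.0416). Ocel1 had the same order, with 60.2, 59.4 and 56.3 in adult KO and 44.3 and 45.8 in adult WT libraries. At 3 dpp Ocel1 had 67.7 and 61.6 in KO libraries, against 22.4, 21.3 and 26.2 in WT libraries, an interaction of -1.06 ± 0.14 (adjusted p = 0.0345). Both genes lay higher in KO at 7 dpp, by 0.67 (adjusted p = 0.0511) and 0.59 (adjusted p = 0.0333).

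Pmaip1 (Noxa), a BH3-only protein that promotes apoptosis and is induced by p53, had 4.32, 3.66 and 5.51 in adult KO and 5.66 and 4.26 in adult WT libraries. At 3 dpp Pmaip1 had 53.9 and 63.9 in KO libraries, against 24.9, 19.4 and 19.6 in WT libraries. The adult groups overlapped at a low level and the 3 dpp groups were apart (1.43 ± 0.19, adjusted p = 0.00374), an interaction of -1.55 ± 0.26 (adjusted p = 0.0429). Pmaip1 was the only call among 18 tested p53 target genes (5.56%, against 0.171% of all genes), whose median interaction was 0.03; Bax, which permeabilises mitochondria, had -0.33 ± 0.13 (adjusted p = 0.216).

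Hoxb8, a homeobox gene of the posterior body axis, had 3.10, 3.45 and 2.97 in adult KO and 3.03 and 2.61 in adult WT libraries. At 3 dpp Hoxb8 had 24.2 and 22.6 in KO libraries, against 7.94, 8.11 and 5.69 in WT libraries, an interaction of -1.45 ± 0.25 (adjusted p = 0.0451). As in Pmaip1, the adult groups overlapped and the 3 dpp difference passed (1.58, adjusted p = 0.00263).

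The other 6 named genes with KO minus WT lower in adults had interactions between -1.10 and -0.87. Gstp1 and Gsta4, glutathione transferases, had -0.98 ± 0.15 and -0.87 ± 0.16. Bin1, which bends membranes, had -0.91 ± 0.14, Dact2, a regulator of Wnt and TGF-beta signalling, had -0.97 ± 0.18, and Gpsm3, a regulator of G proteins, had -0.88 ± 0.16. Tmem160 had -1.10 ± 0.16. In these 6 genes KO libraries lay above all WT libraries at 3 dpp, and in all but Gpsm3 they lay below all WT libraries in adults. Adjusted p for the interaction was 0.0345 to 0.0499 (limma), and Bin1 was the one of the 6 that passed at neither age by itself. Among genes picked after their values were seen, Fth1, the ferritin heavy chain, and Prdx6, a peroxiredoxin, had interactions of -0.78 and -0.59.

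Replication-dependent histone genes, most of whose transcripts end in a stem-loop and lack a poly(A) tail, had a median interaction of -1.10 over 42 tested, of which 2 passed, both lower in adults (4.76%, against 0.171% of all genes). Their median effect was -0.16 in adults and 1.16 at 3 dpp, where 13 passed as higher in KO, as did 4.77% of all genes. In adults 1 passed as higher in KO (0.109% of all genes). At 7 dpp 5 passed as higher in KO (0.114% of all genes), with a median effect of -0.04. Hist1h3e had 0.693, 0.229 and 0 in adult KO and 3.15 and 3.39 in adult WT libraries. At 3 dpp Hist1h3e had 5.35 and 16.2 in KO libraries, against 2.097, 1.504 and 1.249 in WT libraries, an interaction of -3.75 ± 0.55 (adjusted p = 0.0345). Hist1h2bl, with an interaction of -3.61 ± 0.53, was listed at 0 in 2 of the adult KO libraries. With a pseudocount of 0.1 these interactions were -5.99 and -6.35, and that of Hist1h2bl missed the threshold.

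Signal summed over 53 histone genes was 320, 228 and 270 in adult KO and 271 and 246 in adult WT libraries. At 3 dpp it was 760 and 1178 in KO libraries, against 294, 286 and 329 in WT libraries. The adult sums overlapped, and the 3 dpp KO sums lay above all others. Histone genes are near-identical copies, so levels of single genes are uncertain. With single libraries left out the list's median was -1.53 to -0.37.

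**Figure D4:**
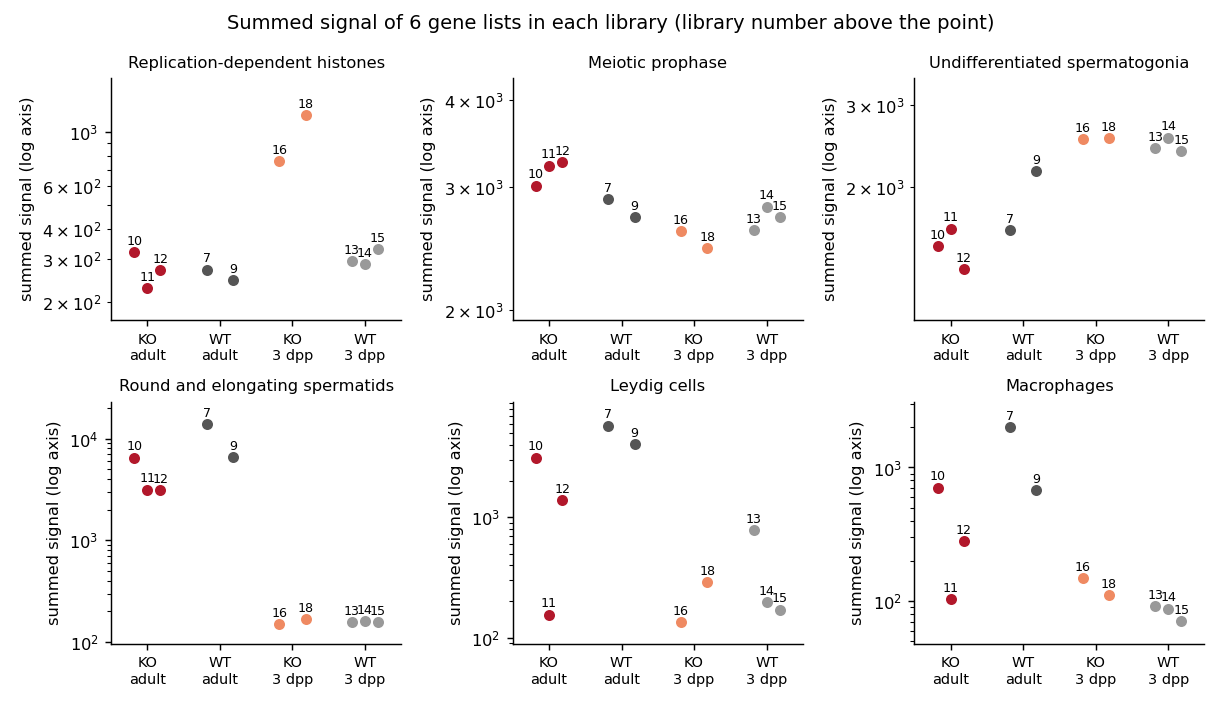
Summed signal (log axes) of 6 gene lists in each of the 10 libraries, labelled by library number, with KO left of WT in adults and then at 3 dpp. Histone sums stand apart in 3 dpp KO libraries 16 and 18 (760 and 1178), and sums of spermatid, Leydig and macrophage markers vary by library within the adult groups.

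Components of the mTOR pathway, the pathway that PRAS40 restrains, gave no interaction call. Of 39 tested genes 0 passed in limma, and 9 had a higher and 2 a lower interaction at an unadjusted p under 0.05, as did 1625 and 1571 of all 17506 genes. At 3 dpp 2 passed as higher and 7 as lower in KO (4.77% and 6.12% of all genes), the targeted gene Akt1s1 being among the 7. In adults 1 passed as lower, again Akt1s1 (0.0914% of all genes). The median interaction was 0.02. The closest to the threshold was Depdc5, a subunit of the GATOR1 complex that inhibits mTORC1, with an interaction of 0.37 ± 0.09 (adjusted p = 0.0834). Pdpk1, the kinase that activates AKT, had 41.0, 43.6 and 48.8 in adult KO and 51.6 and 35.4 in adult WT libraries. At 3 dpp Pdpk1 had 18.7 and 11.2 in KO libraries, against 29.6, 33.2 and 35.3 in WT libraries, an interaction of 1.17 ± 0.30 (adjusted p = 0.09). Its 3 dpp groups did not overlap and its adult groups did.

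Genes for cytosolic ribosomal proteins, whose translation is under mTORC1 control, had a median interaction of -0.36 over 78 tested, and 0 passed in limma (0 higher and 36 lower at an unadjusted p under 0.05, against 1625 and 1571 of all 17506 genes). Their median effect was 0.08 in adults and 0.42 at 3 dpp, where 44 passed as higher in KO, as did 4.77% of all genes. Rpl29 had 885, 936 and 895 in adult KO and 752 and 917 in adult WT libraries. At 3 dpp Rpl29 had 2150 and 2090 in KO libraries, against 1402, 1301 and 1446 in WT libraries, an interaction of -0.49 ± 0.13 (adjusted p = 0.105). The list's median was -0.17 after rescaling to the same total, 0.05 after quantile normalization and -0.05 after removal of the length and GC trend; the median transcript length of the list was 795 bases.

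Genes of oxidative phosphorylation, the respiratory complexes of mitochondria, had a median of -0.32 over 76 tested. Their effect had a median of 0.09 in adults and 0.38 at 3 dpp, where 41 passed as higher and 1 as lower in KO (4.77% and 6.12% of all genes). Cox7a2, a subunit of cytochrome c oxidase, was the 1 interaction call, with KO minus WT lower in adults (0.171% of all genes). It had 166, 167 and 168 in adult KO and 150 and 161 in adult WT libraries. At 3 dpp Cox7a2 had 306 and 279 in KO libraries, against 179, 161 and 186 in WT libraries, an interaction of -0.63 ± 0.11 (adjusted p = 0.0429). The list's median was -0.13 after rescaling, -0.11 after quantile normalization and -0.02 after removal of the length and GC trend.

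In glycolysis, 1 of 22 tested genes passed, with KO minus WT lower in adults (0.171% of all genes). Aldoa, aldolase A, had 312, 277 and 261 in adult KO and 365 and 352 in adult WT libraries. At 3 dpp Aldoa had 897 and 935 in KO libraries, against 729, 704 and 750 in WT libraries, an interaction of -0.68 ± 0.11 (adjusted p = 0.0429). KO and WT were apart at both ages in opposite order. In limma the 3 dpp difference passed (0.33, adjusted p = 0.0309) and the adult difference did not (-0.35, adjusted p = 0.18). The list's median interaction was -0.26, with medians of -0.24 in adults and -0.05 at 3 dpp, so at 3 dpp the list did not share the rise of Aldoa.

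Markers of spermatogonial state gave no interaction call in limma. At an unadjusted p under 0.05, 1 marker of undifferentiated spermatogonia was higher and 8 were lower. Counts were 3 and 2 for differentiating spermatogonia and 2 and 2 for prospermatogonia, against 1625 and 1571 of all 17506 genes. The 33 tested markers of undifferentiated spermatogonia had a median of -0.41, with medians of -0.30 in adults and 0.08 at 3 dpp. Nanos3, a translational repressor of the germ line, had 44.8, 53.2 and 33.7 in adult KO and 48.1 and 71.8 in adult WT libraries. At 3 dpp Nanos3 had 111 and 101 in KO libraries, against 47.3, 36.5 and 71.8 in WT libraries, an interaction of -1.51 ± 0.39 (adjusted p = 0.096). Gfra1, the receptor for GDNF, had -0.54 ± 0.20 (adjusted p = 0.201). The 15 tested markers of differentiating spermatogonia had a median of 0.06, and the 17 of prospermatogonia -0.17.

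Among markers of spermatids, macrophages, Sertoli cells and Leydig cells 0 genes passed in limma. At an unadjusted p under 0.05, 0 of them were higher, while 8 spermatid, 8 macrophage, 2 Sertoli and 0 Leydig markers were lower. Of all 17506 genes, 1625 were higher and 1571 lower at that p. Medians were among the lowest for spermatids (-0.81), Leydig cells (-0.94) and macrophages (-2.20). Cd68, a macrophage glycoprotein, had 31.6, 6.99 and 15.7 in adult KO and 145 and 38.4 in adult WT libraries. At 3 dpp Cd68 had 24.6 and 16.2 in KO libraries, against 10.9, 11.4 and 10.7 in WT libraries, an interaction of -3.02 ± 0.84 (adjusted p = 0.114). Prm2, a protamine of late spermatids, had 1486, 640 and 659 in adult KO and 3306 and 1564 in adult WT libraries, and 0.604 to 2.55 in the 3 dpp libraries. Sertoli cell markers had a median of 0.03, and with single libraries left out this was -0.55 to 0.74.

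The remaining lists had 0 calls in limma (at an unadjusted p under 0.05, 0 to 5 genes a list higher and 0 to 13 lower), with medians between -0.40 and 0.04 for those of at least 10 tested genes: translation factors, ribosome biogenesis, sterol and fatty acid synthesis, the ATF4 response, lysosome and autophagy, the immediate early response, the retinoic acid pathway, GDNF and FGF receptor signalling, peritubular myoid cells, stromal fibroblasts and endothelial cells. Of all 17506 genes, 1625 were higher and 1571 lower at that unadjusted p. The 13 lower genes were of the 37 tested lysosome and autophagy genes, of which 1 was higher. That list had a median interaction of -0.22, with medians of -0.04 in adults and 0.12 at 3 dpp. The 3 tested erythroid genes had a median of -1.03. Across these lists of no calls, the smallest adjusted p was 0.0553, for the fatty acid synthesis gene Acaca (0.68 ± 0.13).

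**Figure D5:**
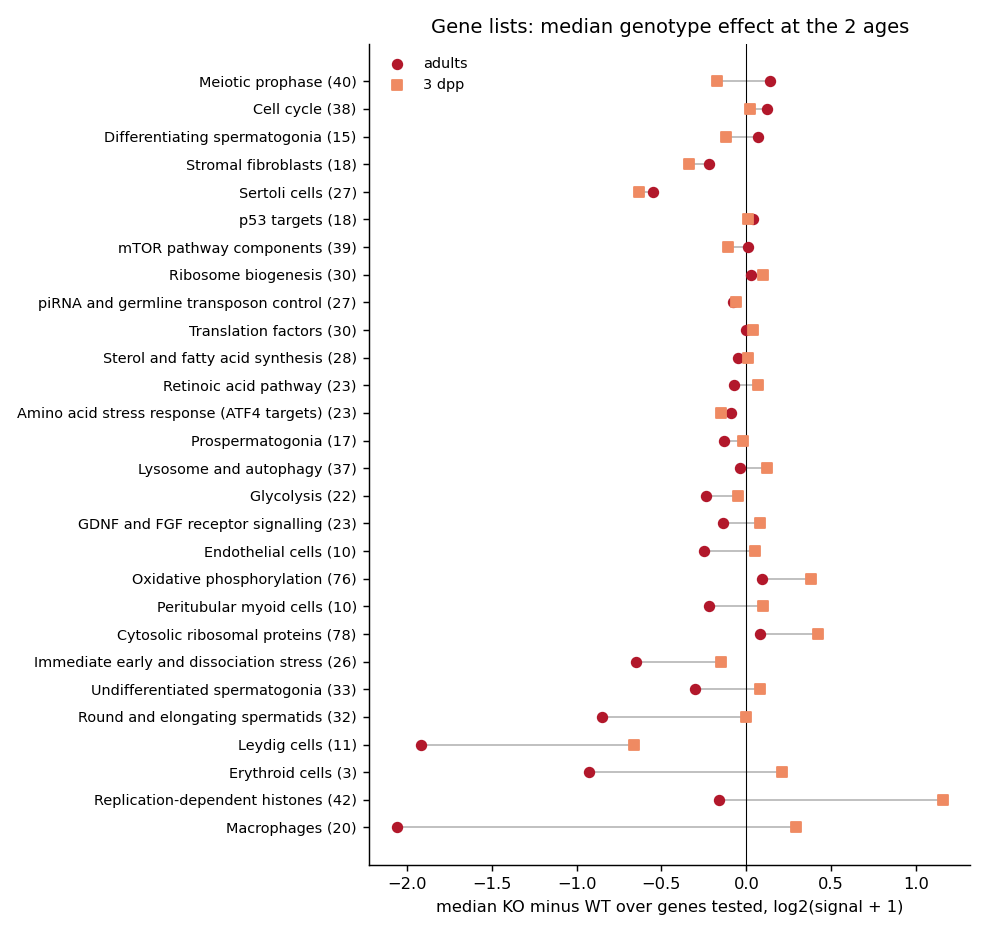
Median of KO minus WT (log2(signal + 1)) over the tested genes of 28 lists in adults (circles) and at 3 dpp (squares), ordered by the median interaction, with the number of genes tested in parentheses. Meiotic prophase is at the top with medians of 0.14 in adults and -0.17 at 3 dpp, and macrophage and histone genes are at the bottom.

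Among all genes 29 passed at both ages, 28 of them with the same sign, Smim22 being the exception. Leaving out provisional gene names, the 6 with the smallest interaction among those with an effect of at least 1 (log2) at both ages were Ptk2b, Ktn1, Defb46, Hist1h4i, Rtraf and Rcbtb2. Ptk2b, the focal adhesion kinase PYK2, had 13.0, 12.7 and 11.0 in adult KO and 1.23 and 0.867 in adult WT libraries. At 3 dpp Ptk2b had 19.03 and 23.79 in KO libraries, against 2.94, 3.74 and 1.61 in WT libraries. KO minus WT was 2.69 in adults and 2.61 at 3 dpp, with an interaction of 0.08 and a 95% interval from -0.71 to 0.88. At 7 dpp it was 2.83.

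Ktn1, the kinesin receptor kinectin, had 6.94, 6.65 and 6.14 in adult KO and 16.1 and 16.9 in adult WT libraries, a difference of -1.21, against -1.30 at 3 dpp. Rtraf (2700060E02Rik), of the tRNA ligase complex, had differences of 1.40 in adults and 1.56 at 3 dpp, and Rcbtb2 had 1.42 and 1.2. Defb46 (EG574081), a defensin gene, was listed at 0 in all 5 KO libraries of these ages and had 6.32 to 12.3 in the WT libraries; at 7 dpp it was present in all KO libraries (8.44 to 30.7). Of the 29 genes, 20 had a known chromosome, and 8 of the 20 lay on chromosome 14, which held 514 of 15028 tested genes with a known chromosome; Akt1s1 lies on chromosome 7. The 8 are Entpd4, Haus4, Ktn1, Pdhb, Ptk2b, Rcbtb2, Rtraf and Tox4.

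At 7 dpp, in libraries that the interaction did not use, KO minus WT of the called genes had medians closer to that of all genes than at 3 dpp. The genes were chosen by the interaction, which includes the 3 dpp libraries. That choice itself favours large values at 3 dpp, so smaller medians at 7 dpp are no separate result. The 84 genes that were higher in adults had a median of -0.71 at 3 dpp, -0.02 at 7 dpp and 0.13 in adults, and the 30 that were lower in adults had 0.60, 0.11 and -0.23. Over all genes these medians were -0.04, 0 and -0.03. At 7 dpp 49 of the 84 lay below 0 and 35 above, and 22 of the 30 lay above 0 and 7 below, with signs that lean as at 3 dpp; over all genes 8901 lay above and 8407 below. At 7 dpp 32 genes (0.183%) passed in a fit of all 15 libraries. Among the 114 called genes 1 passed as lower in KO, Lpl, and 1 as higher, Ocel1 (0.0685% and 0.114% of all genes).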

How the data were processed

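Per the labels' protocols, GFP-positive cells were sorted, and libraries were made with a Vazyme mRNA kit. The authors deposited a signal for 27128 gene names in each library; the submitters' processing notes name the tools kallisto, Trim Galore and DESeq2 and the build mm10; roles and versions are not given in the sources used here. On a TPM scale, low values of every library were multiples of 0.01 within 0.0006, so the deposited signal keeps no read number; a test for counts was not used, and depth and counting error are unknown. An exact 0 can be a failed estimate.

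Here limma 3.58.1 (R 4.3.3, with a mean-variance trend) was run on log2(signal + 1), with a separate mean for KO and WT at both ages (residual degrees of freedom 6, prior 3.65). P-values were adjusted by the Benjamini-Hochberg method over 17506 genes, with a threshold of 0.05. Differences at 7 dpp came from a fit of all 15 libraries. Fold changes on this scale understate those of low genes. Group levels are given by library, errors of differences are standard errors. Older names were matched to current symbols; coordinates and lengths are from GENCODE M21 (GRCm38).

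Named genes are the target, the sorting marker, the 12 highest and 12 lowest interactions past the threshold with a mean signal of at least 5 and no provisional name, the 6 of like effect at both ages, and up to 4 of each of 28 lists, more where more passed. The comparison, lists and genes were chosen with earlier results of these data known. The model was tested on simulated data, with noise drawn separately for every gene and no length trend in the interaction. It recovered 38.9% of 90 interactions of 1 log2 unit and 69.1% of 110 of 2 units, with 5 false calls. A gene without a call may therefore still differ between the ages. Genes picked otherwise are marked as such. A gene that this rule names is not reported here; the fits and list counts include it. Alternatives were the pseudocount, the filter, the scaling, the fit, length and GC correction and leaving out each library.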

Additional observations from a re-analysis of the deposited data

Results flagged for a closer look

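The following genes were singled out because the difference of their genotype effect between adults and 3 dpp was itself tested and passed an adjusted p of 0.05 in limma. With KO minus WT higher in adults, the interaction on the log2(signal + 1) scale was 5.04 for Amd2, 2.51 for Lpl, 1.64 for Meioc, 1.57 for Slc39a9, 1.40 for Knl1 and 1.25 for Ubr3. It was 1.23 for Kdm7a, 1.21 for Tc2n, 1.17 for Trappc8, 1.15 for Pik3c2a, 1.11 for Tmtc3 and 1.10 for Sycp2. Among the gene lists it was 0.96 for Sycp1, 0.92 for Mki67, 0.85 for Smc1b, 0.85 for Cenpe, 0.84 for Tex15 and 0.80 for Cenpf.

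With KO minus WT lower in adults, the interaction was -3.75 for Hist1h3e, -3.61 for Hist1h2bl, -1.84 for Smim22, -1.55 for Pmaip1, -1.45 for Hoxb8, -1.18 for Cbln1 and -1.10 for Tmem160. It was -1.06 for Ocel1, -0.98 for Gstp1, -0.97 for Dact2, -0.91 for Bin1, -0.88 for Gpsm3, -0.87 for Gsta4 and -0.87 for Haus4. For Aldoa it was -0.68 and for Cox7a2 -0.63. With the trend of each library with length and GC removed, Amd2 passed and the other 33 did not; all 34 kept their direction.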

How the results depend on the processing

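The 114 interaction calls became 43 without a filter, 283 with a stricter filter, 1066 with libraries rescaled to the same total, 187 with all 15 libraries in the fit, and 4 with no mean-variance trend. They became 3 with the length and GC trend removed and, as alternatives chosen after seeing the data, 1 with the length trend removed and 182 over the genes with a known length and no correction. With 1 library left out they were 2 to 580. The 1906 calls at 3 dpp became 3345 after rescaling, 1200 after quantile normalization, 1152 with no trend in the variance, 467 and 480 with the length and GC or the length trend removed, and 780 to 2288 with 1 library left out (780 without KO 18, 959 and 902 without WT 13 and 14, 1212 without adult KO 12). The 35 adult calls became 22 with the length trend removed, 23 over genes with a known length, and 14 to 99 with 1 library left out (99 without KO 10, 14 and 15 without WT 7 and 9). Other settings kept these counts within 1.5 times.

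Akt1s1 in adults missed the threshold at -0.57 with no trend in the variance, and without KO 11, WT 7 or WT 9, within a range of -0.60 to -0.53 over the 10 fits with 1 library left out. Its interaction changed sign around 0, to 0.18 (rescaled), 0.12 (length and GC), 0.14 (length) and -0.05 to 0.03 with 1 library left out, never past the threshold. So did values near 0 of genes that were not called: after rescaling Defb46 -0.06, Hist1h4i 0.07 and Rtraf 0.03; after quantile normalization Hist1h4i 0.15, Rtraf 0.13, Fau 0.06 and Uchl1 0.01; with length and GC removed Ktn1 -0.21, Hist1h4i 0.20 and Trp53inp1 -0.04; with length removed Ptk2b -0.04, Ktn1 -0.07, Hist1h4i 0.16 and Rtraf 0.02; with a pseudocount of 5 Ptk2b -0.26. With 1 library left out, ranges that crossed 0 were -2.97 to 0.92 for Hba-a1, -0.10 to 0.33 for Ptk2b, -0.42 to 0.09 for Hist1h4i, -0.02 to 1.59 for Sox9 and -0.04 to 0.39 for Defb46, and Kitl had 0 to 1.46. Every called gene that could be measured kept its direction in all settings run, which is no separate test, because the genes were chosen in the same libraries. No paired analysis was possible because the library numbers are unique and the groups share none. Fits that leave an arm with 1 library assume that it varies like the other groups.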
